A study of Drosophila melanogaster with 11 samples.

Results

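The 9 genes described here encode transcription factors, or a cofactor, of the dorsoventral system of the early Drosophila melanogaster embryo: twi, sna, zen, zen2, brk, ush, pnr, tin and Mef2. They were taken by name, and all 9 were found among the 17753 genes of the deposited count table. The set is grouped as zygotic, although eggs already held transcripts of Mef2 and ush. RNA-seq libraries came from 3 samples of Ctrl embryos and 4 of DomKD embryos, all at stage 5, the cellularizing blastoderm, and from 4 samples of Ctrl eggs that had not been fertilized. The labels call the Ctrl genotype t180 and the DomKD genotype t216. Per the study's methods, females carrying a UAS hairpin from the TRiP collection were crossed to males carrying mat-alpha-Gal4, a driver active in the female germline, and the embryos and eggs were laid by the daughters of that cross.

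The DomKD hairpin is a single line directed against both isoforms of dom, which encodes the Domino ATPase that loads the histone variant H2A.Z into chromatin. Ctrl flies came from a TRiP control line. The knockdown acts in the mother's germline, so it lowers the supply that an embryo inherits, and whatever the embryo transcribes from its own dom copies can add to what remains. Each library was made from whole embryos or eggs, and in such samples fewer cells of a type and less RNA per cell cannot be told apart.

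In the fly blastoderm a nuclear gradient of the maternal factor Dorsal, set by Toll signalling on the ventral side, divides the embryo into mesoderm, neurogenic ectoderm and dorsal ectoderm. High Dorsal switches on twi and sna ventrally and keeps zen and dpp off there, so that these are left to the dorsal side, where BMP signalling by Dpp and Scw subdivides the ectoderm. The 9 genes cover both sides of this system: twi (a basic helix-loop-helix activator) and sna (a zinc finger repressor) set the mesoderm, tin (an NK homeobox factor) and Mef2 (a MADS box factor) act below twi in mesoderm and muscle, zen and zen2 are neighbouring homeobox genes of the dorsal side, brk represses BMP targets in the neurogenic ectoderm, and pnr (a GATA factor) and its cofactor ush act in the dorsal ectoderm in response to BMP.

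The libraries held 12642275 to 16310645 counts in Ctrl embryos, 11809453 to 15712506 in DomKD embryos and 15387133 to 17700171 in eggs. The hairpin's target separated the groups: dom stood at 2051, 1872 and 1939 CPM (counts scaled to a common library total) in the Ctrl embryos, at 65.5, 73.6, 102 and 56.5 CPM in the DomKD embryos and at 1322 to 1433 CPM in the eggs. Genes of the blastoderm, among them bnk, slam, halo and ftz, summed to 3060 to 4612 CPM in Ctrl and 4131 to 5778 CPM in DomKD embryos against 150 to 174 CPM in eggs, so both sets of embryos carried the marks of their labelled stage. Of this list 8 of 9 genes were detected above 3 counts in every embryo library, and Sry-alpha was at 0 throughout. No label says that libraries of a group came from separate cultures or collections, so the p-values below measure only the spread between these libraries, which may be technical.

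Levels were compared between genes in TPM, that is, counts scaled by exon length and then to a common library total. In Ctrl embryos zen was highest at 286 ± 27.6 (SD, n = 3). Below it came zen2 at 75.5 ± 11.8 and twi at 69.4 ± 14.2, whose ranges overlapped, and then brk at 39.3 ± 9.27 and sna at 38.7 ± 7.17, which overlapped as well. The 4 remaining genes were low: Mef2 stood at 7.88 ± 2.63 TPM, pnr at 4.12 ± 1.18, tin at 2.80 ± 0.879 and ush at 2.76 ± 0.623, and the ranges of pnr and tin and of tin and ush overlapped. In DomKD embryos the order from zen to twi was the same (n = 4): zen was at 457 ± 47.5 TPM, zen2 at 87.3 ± 12.8 and twi at 79.7 ± 16.0. There sna stood at 51.1 ± 6.94 TPM and brk at 40.5 ± 5.54 with overlapping ranges, Mef2 at 6.64 ± 1.38, pnr at 1.10 ± 0.388, ush at 0.965 ± 0.343 and tin at 0.672 ± 0.128.

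**Figure D1:**
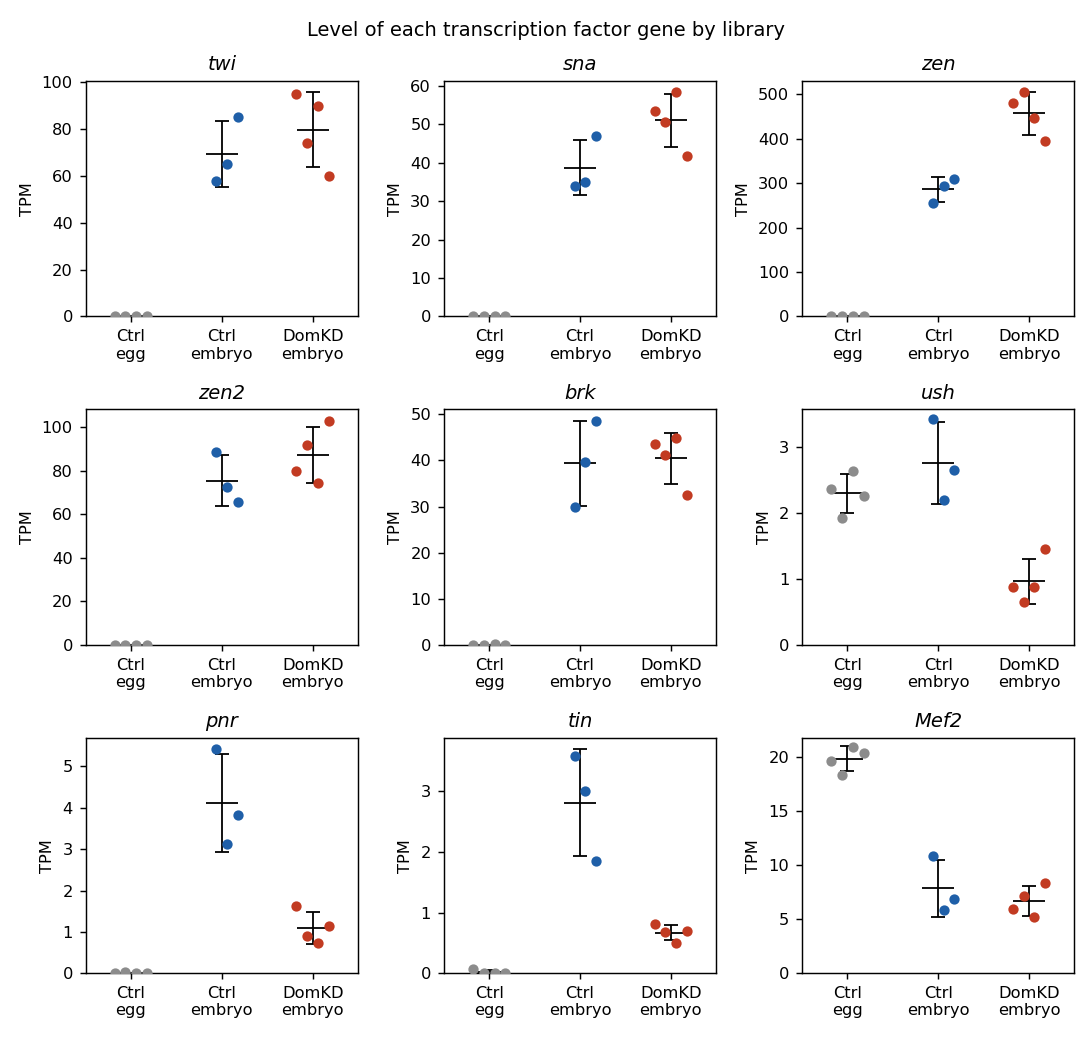
Level of each of the 9 genes in Ctrl eggs, Ctrl embryos and DomKD embryos, in TPM on a linear axis that starts at 0 and has its own scale for each gene. Each point is a library, and the bars give the mean and SD of each group. In Ctrl embryos zen stands at 286 ± 27.6 TPM (n = 3), pnr, tin and ush lie lower in all 4 DomKD than in all 3 Ctrl embryo libraries, and in eggs only Mef2 and ush lie above 1 TPM.

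The genes differ widely in how they are laid out in the genome (positions on dm6, from Ensembl release 115). The zen gene (FBgn0004053) lies on 3R at 6752864 to 6754194 on the minus strand with 1267 bases of exon, and zen2 (FBgn0004054) lies on the same strand at 6743135 to 6744136, 8727 bases away. The sna gene (FBgn0003448; 2L, 15476593 to 15478260, minus strand) and brk (FBgn0024250; X, 7307939 to 7311132, plus strand) are single exons of 1668 and 3194 bases. By contrast ush (FBgn0003963; 2L, 476220 to 540560, plus strand) spans 64341 bases for 6706 bases of exon, and Mef2 (FBgn0011656; 2R, 9913496 to 9958858, minus strand) spans 45363 bases for 9188. The pnr gene (FBgn0003117) lies on 3R at 16026079 to 16041796 and tin (FBgn0004110) on 3R at 21378977 to 21381970, both on the plus strand, with 4361 and 1664 bases of exon.

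Some exon sequence is shared with other annotated genes. The twi gene (FBgn0003900; 2R, 22985374 to 23048325, plus strand) has 2388 bases of exon, of which 291 are also exon of asRNA:CR42742 on the same strand and 245 are exon of CG9897 on the opposite strand. For ush, 524 bases of exon are shared on the same strand with lncRNA:CR46258. The strand setting used for counting is not given in the sources used here, so reads from these stretches cannot be told apart. The exon lengths of the annotation equal those deposited with the counts for all 9 genes.

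The first comparison asked which of the 9 transcripts an egg already holds. In Ctrl embryos 7 of the 9 were higher than in eggs, 1 was lower and 1 did not pass the test (edgeR's quasi-likelihood test, adjusted p under 0.05), while 46.6% of the 7565 genes tested were higher and 39.2% lower. Among genes without a maternal supply, taken as those that did not exceed 5 TPM in 3 or more of the 4 eggs, 75.8% were higher. By that limit Mef2 alone of the 9 was maternally deposited, and of maternally deposited genes 45.3% were lower in embryos.

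The twi transcript was at 0, 1, 0 and 0 counts in the eggs and at 1115, 1214 and 1328 in Ctrl embryos, and sna was at 0 in all eggs and at 459, 457 and 511 counts in Ctrl embryos. Scaled by library totals, twi was 5530-fold higher (95% exact interval 992 to 218481). With no count in eggs sna has no ratio, and the lower limit of the same interval was 584. Against a floor of 3 counts per library, a stricter bound that the twi ratio does not use, sna was at least 182-fold higher. For twi and sna, as for the others given this way, the interval covers counting error only. The tin transcript was at 1, 0, 0 and 0 counts in eggs and 48, 39 and 20 in Ctrl embryos, 162-fold higher (28.4 to 6450). Of the 4 ventral genes, these 3 had at most 1 count in any egg library and did not overlap between eggs and embryos.

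Of the 7 transcripts that were higher in embryos, zen was the only 1 with counts in every egg library. The eggs held 8, 4, 5 and 5 zen counts against 2617, 2903 and 2555 in Ctrl embryos, 555-fold higher (366 to 886). Its neighbour zen2 was at 0, 0, 1 and 0 counts in eggs and 717, 567 and 428 in Ctrl embryos, 2589-fold higher (464 to 102312). For brk the eggs held 0, 1, 3 and 0 counts against 773, 987 and 1010, 1047-fold higher (409 to 3846). For pnr they held 0, 1, 0 and 0 counts against 191, 106 and 109, 614-fold higher (110 to 24308). In edgeR's quasi-likelihood test these 7 genes had adjusted p-values between 2.96e-11 for zen and 1.76e-06 for tin. Their egg and embryo libraries did not overlap, which held for 46.1% of all genes in this direction. With at most 8 counts in any egg library, all 7 entered this test only through the embryos. Their calls and separation thus follow largely from the filter and add little to the counts.

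Mef2 and ush were the exceptions. Mef2, the muscle factor, was at 1377, 1428, 1658 and 1487 counts in eggs and at 807, 422 and 413 in Ctrl embryos, so every egg library lay above every embryo library, as for 38.8% of all genes. On the CPM scale of that fit it stood at 90.0 ± 4.39 (SD, n = 4) in eggs and 37.0 ± 10.4 (n = 3) in Ctrl embryos, 2.43-fold lower in the embryos (log2 fold change -1.28, SE 0.15; edgeR's quasi-likelihood test, adjusted p = 1.4e-05). In DomKD embryos it stood at 31.9 ± 5.96 CPM (n = 4) beside 88.6 ± 3.95 in eggs (log2 fold change -1.47, SE 0.11; edgeR adjusted p = 1.45e-07), in a comparison added after the data were seen, in which 41.4% of 7423 genes were lower. Both sets of embryos are set against the same eggs.

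The GATA cofactor gene ush was at 121, 110, 153 and 120 counts in eggs and at 186, 115 and 116 in Ctrl embryos, and the ranges overlapped. Its levels were 7.62 ± 0.920 CPM (n = 4) in eggs and 9.48 ± 1.67 (n = 3) in Ctrl embryos (log2 fold change 0.32, 95% interval -0.030 to 0.67; edgeR's quasi-likelihood test, adjusted p = 0.0787), where the median over all genes was 0.14. The difference passed the test without Ctrl embryo replicate 3 (log2 fold change 0.47, adjusted p = 0.0160) and when genes averaging fewer than 100 counts were dropped before the fit (0.39, adjusted p = 0.0349), and over 14 alternatives the adjusted p ranged from 0.0160 to 0.323. In DomKD embryos ush was at 39, 35, 35 and 68 counts, below every Ctrl egg library, as for 40.2% of all genes. Without eggs of DomKD mothers, a smaller maternal supply of ush and less RNA made by the embryo cannot be told apart. There it stood at 3.38 ± 1.14 CPM against 7.50 ± 0.883 in eggs (log2 fold change -1.15, SE 0.21; edgeR adjusted p = 0.000341). At 2.30 ± 0.295 TPM in eggs (n = 4) ush falls under the limit of 5 TPM for maternal deposition, and passes a limit of 1 TPM.

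The main comparison asked how the 9 genes stood in embryos whose mothers were depleted of dom. In DomKD embryos pnr, tin and ush were lower and zen was higher, while twi, sna, zen2, brk and Mef2 did not pass the test (edgeR's quasi-likelihood test, adjusted p under 0.05 over 7727 genes). Over all genes tested 15.5% were lower and 10.6% higher, so that 59.3% of the calls were lower (71.9% when libraries were scaled by their totals alone). Among genes without a maternal supply by the limit of 5 TPM, 25.4% were lower and 11% higher (13.2% lower among maternally deposited genes). For those with a mean of 10 to 100 counts, the range of ush, pnr and tin, the shares were 27.7% and 7.37%. This class holds ush by that limit alone, since eggs carried ush at 110 to 153 counts. At a mean of at least 100 counts, the range of zen, zen2, twi, sna and brk, 19.6% of the genes without a maternal supply were lower and 20.3% higher. The median log2 fold change was 0.096 over the 9 genes and 0.0028 over all genes, and it was -0.45 over genes with a mean under 50 counts.

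**Figure D2:**
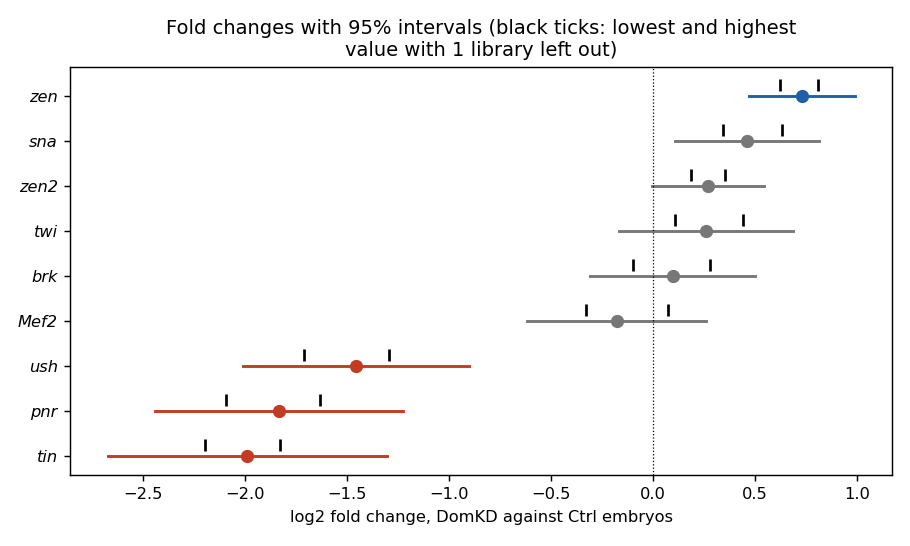
Log2 fold change of each of the 9 genes between DomKD and Ctrl embryos (horizontal axis), with lines for the 95% interval of edgeR's quasi-likelihood fit and black ticks for the lowest and highest value when 1 library is left out. Red and blue mark genes that passed as lower and higher. The intervals of pnr, tin and ush lie below 0, those of zen and sna above 0, and those of twi, zen2, brk and Mef2 include 0. The sna difference did not pass after adjustment over all genes (adjusted p = 0.0575).

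The mesoderm determinants twi and sna did not pass the test. On the normalized CPM scale of the embryo fit, twi stood at 65.8, 81.5 and 103 in Ctrl replicates 2, 3 and 4 and at 123, 91.3, 113 and 72.9 in DomKD replicates 1 to 4, with overlapping ranges (log2 fold change 0.26, 95% interval -0.17 to 0.69; edgeR's quasi-likelihood test, adjusted p = 0.351). The repressor gene sna stood at 27.1, 30.7 and 39.8 CPM in Ctrl and at 48.4, 43.8, 51.1 and 35.6 CPM in DomKD embryos. Only DomKD replicate 4 lay within the Ctrl range, and the difference in sna missed the threshold (log2 fold change 0.46, SE 0.16, interval 0.11 to 0.81; edgeR adjusted p = 0.0575). It passed with DESeq2 (adjusted p = 0.0289), without the filter on low counts (0.0201), with all 11 libraries in the fit (0.0398), without Ctrl replicate 4 (0.0250) and without DomKD replicate 4 (0.0241), and over all 14 alternatives its adjusted p ranged from 0.0201 to 0.172.

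Of the genes that act below twi in the mesoderm, tin fell and Mef2 did not pass the test. The heart and visceral mesoderm gene tin was at 48, 39 and 20 counts in Ctrl embryos and at 9, 9, 5 and 8 in DomKD embryos, the fewest reads of the 9 genes. That is 2.83, 2.62 and 1.56 CPM against 0.733, 0.586, 0.438 and 0.586 CPM, with no DomKD value reaching the lowest Ctrl value. The fitted change was 3.97-fold down (log2 fold change -1.99, SE 0.31, interval -2.67 to -1.30; edgeR's quasi-likelihood test, adjusted p = 0.00172). Every DomKD library held fewer tin counts than the minimum mean of 10, so tin entered this test only through the Ctrl libraries. At its DomKD level in both groups tin would not have been tested, and between DomKD embryos and eggs it was not tested. Mef2 stood at 47.6, 28.3 and 32.2 CPM in Ctrl and 29.5, 33.7, 25.04 and 39.1 CPM in DomKD embryos, with overlapping ranges and Ctrl replicate 2 the highest (log2 fold change -0.18, interval -0.62 to 0.26; edgeR adjusted p = 0.534). Without Ctrl replicate 2 the Mef2 value was 0.075. Eggs already hold Mef2, at 1377 to 1658 counts, so in its embryo values leftover maternal RNA and zygotic RNA cannot be told apart.

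Of the 2 neighbouring dorsal homeobox genes, zen rose in DomKD embryos. Its levels were 154, 195 and 199 CPM in Ctrl and 331, 331, 296 and 255 CPM in DomKD embryos, so the lowest DomKD library stood above the highest Ctrl library. The increase was 1.66-fold (log2 fold change 0.73, SE 0.12, interval 0.47 to 0.99; edgeR's quasi-likelihood test, adjusted p = 0.00198). For zen2 the levels were 42.3, 38.0 and 33.4 CPM in Ctrl and 43.4, 47.7, 39.0 and 52.6 CPM in DomKD embryos, which overlapped (log2 fold change 0.27, interval -0.0059 to 0.54; edgeR adjusted p = 0.136). The difference between the changes of zen and zen2 was not tested.

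The neurogenic ectoderm repressor gene brk showed the smallest difference. It stood at 45.6, 66.2 and 78.7 CPM in Ctrl and at 75.3, 68.0, 75.0 and 52.9 CPM in DomKD embryos, and 3 of the 4 DomKD values fell between Ctrl replicates 3 and 4 (log2 fold change 0.096, interval -0.31 to 0.50; edgeR's quasi-likelihood test, adjusted p = 0.729). Without Ctrl replicate 2 the brk value was -0.099.

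The GATA factor pair of the dorsal ectoderm fell together. The pnr gene stood at 11.3, 7.11 and 8.49 CPM in Ctrl and at 3.83, 2.02, 1.66 and 2.56 CPM in DomKD embryos, from 106 to 191 counts per Ctrl library and 19 to 47 per DomKD library. Its change was 3.57-fold down (log2 fold change -1.83, SE 0.27, interval -2.44 to -1.22; edgeR's quasi-likelihood test, adjusted p = 0.00150). Its cofactor gene ush stood at 10.98, 7.72 and 9.04 CPM in Ctrl and at 3.18, 2.28, 3.06 and 4.98 CPM in DomKD embryos, 2.74-fold down (log2 fold change -1.46, SE 0.25, interval -2.01 to -0.90; edgeR adjusted p = 0.00284). For both genes, as for tin, the groups did not overlap, a separation seen in 18.7% of all genes in this direction. In the direction of zen it was seen in 16.5%.

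The calls of zen, ush, pnr and tin held when any single embryo library was left out. The log2 fold change then ranged from 0.62 to 0.81 for zen, from -1.71 to -1.29 for ush, from -2.09 to -1.63 for pnr and from -2.20 to -1.83 for tin. The libraries of a group did not stand alike in all 9 genes. Ctrl replicate 2 was the lowest Ctrl library in twi, sna, zen and brk and the highest in zen2, ush, pnr, tin and Mef2, and DomKD replicate 4 was the lowest DomKD library in twi, sna, zen and brk and the highest in zen2, ush and Mef2. Of the 8 detected blastoderm markers, Ctrl replicate 2 was the lowest Ctrl library in 5 and DomKD replicate 4 the lowest DomKD library in 6, and their sums were the lowest of each group (3060 and 4131 CPM). Among the blastoderm markers bnk (log2 fold change 0.55, adjusted p = 0.0383), halo (0.59, 0.0342) and kni (0.53, 0.0352) were higher in DomKD embryos by edgeR's quasi-likelihood test. The other 5 of the 8 tested did not pass, and the groups overlapped in all 8. Over all genes 10.6% were higher, and 20.3% of genes without a maternal supply at a mean of at least 100 counts. How far these marker differences have a part in the values of the 9 genes was not tested.

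Ratios of counts between members of the same library do not depend on how libraries are scaled. They were chosen after the values were seen and are given without a test. The zen2 counts were 27.4, 19.5 and 16.8% of the zen counts in Ctrl embryos and 13.1, 14.4, 13.2 and 20.6% in DomKD embryos, which overlap through DomKD replicate 4. The tin counts were 4.30, 3.21 and 1.51% of the twi counts in Ctrl embryos and 0.595, 0.642, 0.389 and 0.804% in DomKD embryos, with no overlap. The pnr counts were 7.30, 3.65 and 4.27% of the zen counts in Ctrl and 1.16, 0.611, 0.562 and 1.003% in DomKD embryos, the pair whose members moved in opposite directions.

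For sna and twi the ratio was 41.2, 37.6 and 38.5% in Ctrl and 39.3, 47.97, 45.4 and 48.8% in DomKD embryos, where DomKD replicate 1 lay within the Ctrl range and the others above it. For ush and pnr, which both fell, the ratio was 97.4, 108 and 106% in Ctrl and 83.0, 113, 184 and 194% in DomKD embryos, a wider spread that rests on 19 to 68 counts per gene and library.

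**Figure D3:**
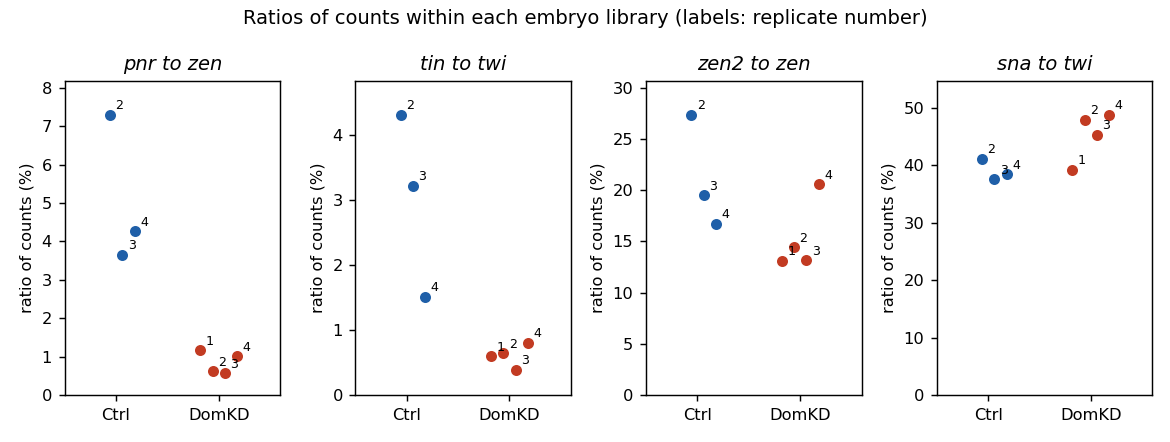
Ratio of the counts of 4 pairs of the 9 genes within each embryo library, in percent on an axis that starts at 0, with the replicate number beside each point (blue Ctrl, red DomKD). The pnr to zen and tin to twi ratios of the 4 DomKD libraries lie below those of the 3 Ctrl libraries, the zen2 to zen ratios overlap through DomKD replicate 4 and the sna to twi ratios through DomKD replicate 1.

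The rest of the dorsoventral system was followed through 4 gene lists, to be read against the 15.5% lower and 10.6% higher over all genes. Of the maternal Toll and Dorsal pathway, which acts upstream of the 9 genes, 13 of 14 genes were tested and 0 were lower and 2 higher in DomKD embryos, with a median log2 fold change of 0.14. The 2 were Myd88, the adaptor of the Toll receptor (0.40, edgeR's quasi-likelihood test, adjusted p = 0.0252), and ea, the protease that processes the Toll ligand (0.27, adjusted p = 0.0124). The gradient factor gene itself, dl, was at 0.38 (adjusted p = 0.132), its inhibitor gene cact at 0.027 and the receptor gene Tl at 0.075, all without passing. The number of higher genes was 1 without Ctrl replicate 4 or DomKD replicate 2, 4 with all 11 libraries in the fit, and 0 to 4 over all 14 alternatives.

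Among 13 mesoderm genes, 3 were lower and 1 higher, with a median log2 fold change of -0.21. The count of lower genes is near the 25.4% of genes without a maternal supply. The list also holds genes that eggs carry, namely T48, fog, Mes2, zfh1 and Ady43A (77.2, 83.7, 118, 42.6 and 109 CPM in eggs). Of maternally deposited genes 13.2% were lower. The 3 lower genes of the list stood at 0.107 CPM or less in eggs. The lower genes were if, an integrin alpha subunit (-2.23, edgeR's quasi-likelihood test, adjusted p = 0.00453), stumps, the adaptor of FGF signalling in mesoderm (-1.60, adjusted p = 0.0128), and htl, the FGF receptor of mesoderm (-0.85, adjusted p = 0.0182). The higher gene was Ady43A (listed by the annotation as Adk3), an adenosine kinase family gene (0.63, adjusted p = 0.0273). Without Ctrl replicate 3 the list had 5 lower genes, and Ady43A no longer passed without Ctrl replicate 3, Ctrl replicate 4, DomKD replicate 1 or DomKD replicate 4.

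Of the 11 mesectoderm and neurogenic ectoderm genes 3 were lower and 0 higher, with a median log2 fold change of -0.14. This too is near the 25.4% lower among genes without a maternal supply. They were ths, an FGF ligand for htl (-1.13, edgeR's quasi-likelihood test, adjusted p = 0.02001), and, at means of 23.9 and 28.7 counts, the midline regulator sim (-2.22, adjusted p = 0.00243) and the column homeobox gene ind (-1.61, adjusted p = 0.00784). Both sim and ind fell below the 50 counts asked of a gene to be named, and they are named here after their values were seen. In DomKD embryos sim stood at 0.62 CPM, near the 0.59 CPM of tin. Like tin, sim may thus have entered the test only through the Ctrl libraries. The list had 1 higher gene without Ctrl replicate 4 or without DomKD replicate 4.

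The dorsal ectoderm and amnioserosa list covers the territory of pnr, ush, zen and zen2, and its genes changed in both directions. Of its 16 tested genes 4 were lower and 5 higher, with a median log2 fold change of -0.028. Among genes without a maternal supply 25.4% were lower and 11% higher. At a mean of at least 100 counts, the range of all the called genes of this list, these shares were 19.6% and 20.3%. The count of lower genes is near these shares. The lower genes were the transcription factor genes peb (-1.27, edgeR's quasi-likelihood test, adjusted p = 0.00250), tup (-1.07, adjusted p = 0.0132) and Doc2 (-0.93, adjusted p = 0.0318), together with the peptidase gene Ance (-0.66, adjusted p = 0.0109). Other transcription regulator genes of the list did not pass, namely Doc1 (0.32), emc (0.069), Doc3 (-0.47) and net (-0.42). The higher genes were the BMP ligand genes dpp (0.39, adjusted p = 0.0394) and scw (0.30, adjusted p = 0.0283; named after its value was seen), the BMP regulators tld (0.44, adjusted p = 0.0126) and tsg (0.45, adjusted p = 0.00469), and Dtg, a gene induced by Dpp (0.50, adjusted p = 0.0265). The number of lower genes was 2 without Ctrl replicate 4, and the number of higher genes was 3 without Ctrl replicate 2, Ctrl replicate 3, DomKD replicate 2 or DomKD replicate 3. Over all 14 alternatives 2 to 5 genes were lower and 1 to 5 higher.

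**Figure D4:**
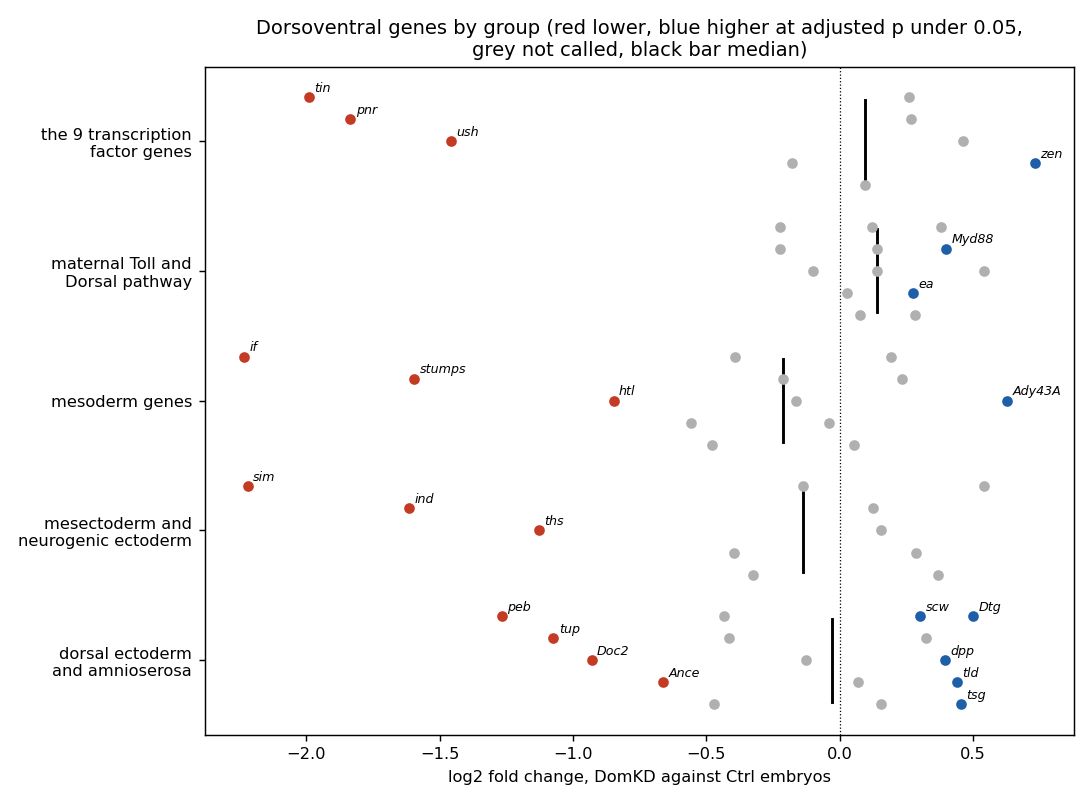
Log2 fold change between DomKD and Ctrl embryos for the 9 transcription factor genes and for 4 lists of other dorsoventral genes. Each point is a gene, coloured where its adjusted p was under 0.05 (edgeR's quasi-likelihood test), and the black bar is the median of the group, 0.096 for the 9 genes, 0.14 for the maternal pathway, -0.21 for mesoderm, -0.14 for mesectoderm and neurogenic ectoderm and -0.028 for dorsal ectoderm and amnioserosa.

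Several of the 9 genes are also active in older embryos, so markers of later tissue were summed in each library. A list of 14 later muscle genes summed to 11.9 to 12.3 CPM in Ctrl embryos, 5.81 to 7.001 CPM in DomKD embryos and 3.51 to 5.31 CPM in eggs, and its defining member nau was at 0. Only 3 of the 14 genes had counts enough to be tested. Of these kirre (log2 fold change -0.85, adjusted p = 0.00697) and bt (-1.30, adjusted p = 0.00157) passed as lower in DomKD embryos by edgeR's quasi-likelihood test, and lmd did not pass. Over all genes 15.5% were lower. Both kirre and bt are also present in eggs, and they made up most of the sum in every embryo library (4.17 and 4.29 CPM in Ctrl replicate 2). A list of 5 later mesoderm and heart genes summed to 88.1 to 102 CPM in Ctrl and 83.6 to 101 CPM in DomKD embryos, most of it from how, and its member bap was at 0. The part of these marker differences in the lower tin, pnr and ush values was not tested.

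The profile over the 7 embryo libraries separated the 9 genes by their likeness to each other, measured as the root mean square difference of log2 CPM after each profile was centred on its own mean. The smallest differences were twi and brk at 0.13, then twi and sna at 0.14, sna and zen at 0.19 and sna and brk at 0.20, while ush and pnr differed by 0.41 and zen and pnr by 1.33. The measure is not scaled by how much each profile varies. The root mean square of the centred profile itself was 0.31 for twi and 0.27 for brk, against 0.79 for ush and 0.97 for pnr. The larger value of ush and pnr thus does not show that they are less alike than twi and brk. Among 6509 other genes that averaged 50 counts or more, the nearest to twi were CG13894 (0.065) and Ac78C (0.069), to sna kni (0.069) and Notum (0.072), and to zen CG3625 (0.053) and CG4702 (0.079). Nearest to brk were Atg101 (0.037) and CG13427 (0.081), to zen2 CASK (0.034) and CG9855 (0.040), and to Mef2 DCTN4-p62 (0.068) and orb (0.072). The genes nearest to ush were Rca1 (0.13) and CG11396 (0.16), and those nearest to pnr were Fcp1 (0.22) and drm (0.23). How close the nearest of 6509 genes would lie by chance over 7 libraries was not tested. Likeness in embryos did not extend to eggs for all of them. Fcp1 held 2631 to 2955 counts and CASK 2588 to 3024 in eggs, where pnr and zen2 had at most 1. By contrast drm, kni, Notum, CG4702 and CG13427 were at 0 there. With a mean under 50 counts tin was left out of this measure.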

How the data were processed

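Total RNA of whole embryos and eggs had been sequenced after a stranded total RNA preparation. The authors deposited a table of raw counts per gene, made with featureCounts (version not given in the sources used here) in the mRNA-seq workflow of snakePipes 2.0.2 on dm6 with Ensembl 96. The deposited table also gives an exon length per gene, a unit of its own (other), and holds 1 column that matched no sample and was not used. Names came from Ensembl release 115 and covered 17626 of 17753 genes. CPM and TPM were computed here from the counts and the deposited lengths.

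Groups were tested with edgeR 4.0.16 (R 4.3.3): TMM factors, quasi-likelihood fit by group alone, genes that averaged 10 counts or more over the compared libraries, and Benjamini-Hochberg adjustment over all of them at a threshold of 0.05. Plotted and reported CPM use the TMM factors unless given as library totals (dom and marker genes). The biological coefficient of variation between embryo libraries was 11.6%. Replicates differed beyond sampling noise (chi-square per gene 4.70 to 24.7), so none was merged. Counting intervals are exact at 95%.

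All 9 genes are named, with the 2 most alike genes of each that averages 50 counts or more, and up to 4 genes per list and direction that passed and averaged as many, largest change first. The genes and lists were chosen with earlier results of these data known. Alternatives were DESeq2 1.42.0, RLE size factors, library totals alone, no filter on low counts or a minimum mean of 100, all 11 libraries in a fit, the replicate number as a block, and each library left out. Figures were drawn with matplotlib 3.10.9.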

Additional observations from a re-analysis of the deposited data

Results flagged for a closer look

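In 4 of 17 sets of values, each a gene in a group of 4 libraries, the gap between a library and the others exceeded Dixon's critical value. All 4 are eggs with a single count beside libraries at 0, where the gap is the whole range by construction, so the share of sets that chance flags in continuous values does not apply. For twi, egg replicate 2 was at 0.0493 TPM with the others at 0. For zen2 it was egg replicate 3 at 0.116 TPM, for pnr egg replicate 2 at 0.0270 TPM and for tin egg replicate 1 at 0.0788 TPM, again with the others at 0.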

How the results depend on the processing

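Of 123 refits of single genes between DomKD and Ctrl embryos, 116 kept direction and call, 5 brought sna past the threshold and 2 turned direction, brk to -0.099 and Mef2 to 0.075 without Ctrl replicate 2, neither passing (ranges -0.099 to 0.28 for brk and -0.33 to 0.075 for Mef2 with a library left out). With a minimum mean of 100 counts, 1201 genes changed (694 lower, 507 higher; 2015 in the reported fit) and 0 of the 9 genes were lower, since ush, pnr and tin were then not tested. With all 11 libraries 1301 genes were higher. With DESeq2, without a filter or with all 11 libraries 2 of the 9 genes were higher, sna being added. Leaving out a library gave 1292 to 1816 changed genes, 799 to 1076 lower and 483 to 748 higher, fewest without Ctrl replicate 4 (1292) and DomKD replicate 2 (1334), and 1 to 2 of the 9 genes higher. Against eggs it gave 6309 to 6449 changed genes, with 122 of 124 single-gene refits keeping direction and call and ush passing in 2. Same-numbered libraries did not deviate together (correlations of 0.052, -0.060 and -0.37), and the reported fit does not pair them. Over so few libraries this cannot exclude that they were collected or prepared together. The fit with the replicate number as a block also left out DomKD replicate 1, since no Ctrl embryo library used here has that number. In this fit 1221 genes changed (783 lower, 438 higher) and the 4 called genes kept their calls. The dorsal list had 1 higher gene there and the Toll and mesoderm lists 0. The block and the missing library were not separated. Ordered by CPM without length, the ranks in Ctrl embryos became 2 for twi, 3 for brk, 4 for zen2, 5 for Mef2, 6 for sna, 7 for ush, 8 for pnr and 9 for tin. With a limit of 1 TPM 2 of the 9 genes were maternally deposited. The causes were not tested. Depth limits tin most, at 5 to 9 counts per DomKD library.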

Other observations

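Between Ctrl embryos and eggs, all 16 tested dorsal ectoderm and amnioserosa genes and all 10 tested mesectoderm and neurogenic genes were higher in embryos by edgeR's quasi-likelihood test, where 46.6% of all genes and 75.8% of genes without a maternal supply were higher. Genes nearly absent from eggs entered this test only through the embryos, which raises both the list counts and the 75.8%. Of the 13 mesoderm genes 9 were higher and 4 lower, the lower being T48 (log2 fold change -1.45), Mes2 (-1.91), the repressor gene zfh1 (-1.36) and Ady43A (-3.59), where 39.2% of all genes were lower. Of the 12 tested genes of the maternal Toll and Dorsal pathway 4 were lower in embryos, dl (-3.44), spz (-1.62), gd (-1.10) and tub (-0.53), and 3 were higher. A higher level in embryos does not mean that eggs lack the transcript. The mesoderm gene fog stood at 83.7 CPM in eggs, emc of the dorsal list at 33.2 CPM, and the pathway genes cact and Tl at 542 and 1029 CPM, and all 4 were higher in embryos. These 4 are named after their values were seen.

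Haemocyte genes summed to 28.8 to 44.4 CPM in Ctrl embryos, 21.8 to 33.6 CPM in DomKD embryos and 0.960 to 1.56 CPM in eggs, mostly from the GATA factor gene srp, with eater and He at 0. Follicle cell genes summed to 0.613 to 17.7 CPM in Ctrl embryos, 0.292 to 3.63 CPM in DomKD embryos and 0.169 to 0.247 CPM in eggs. The highest sum was in Ctrl replicate 3, with 94 counts of the yolk protein gene Yp1 against 4 in each of the other Ctrl embryo libraries.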
